A study of Homo sapiens with 6 samples.

Results

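The complement components and regulators described here are 10 genes, found by gene name among the 63241 gene rows of a table of TPM, which count a gene's transcripts per length and relative to the library's total, from human macrophages, and each name matched 1 row. They are C1R, C1S, C2, C3, CFB, CFD, CFP, SERPING1, CD55 and CD59. The cells were macrophages derived from THP-1, an established human monocytic leukaemia cell line. In the siDUSP6 group they were transfected with an siRNA against DUSP6, a phosphatase that inactivates ERK1 and ERK2, and are labelled DUSP6 knockdown. In the siNC group they received a negative control siRNA and are labelled WT. RNA was taken at 24 h in both groups, with 3 libraries in each. The knockdown was transient and in 1 cell line. The labels do not say whether replicates were separate cultures, and p-values then cover only the spread among the 6 libraries, which may be technical. The title of the series ties the experiment to macrophage polarization through DUSP6 and ERK in adenomyosis.

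Complement is a cascade of plasma proteases that marks surfaces with fragments of C3 and can end in a pore through a membrane. The classical route starts with the proteases C1r and C1s and uses C2, the alternative route uses factor B, factor D and properdin, and both meet at C3. Membrane proteins such as CD55 and CD59 shield the body's own cells. Most plasma complement comes from the liver, but macrophages make several components themselves and carry receptors for the fragments.

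Between 14487 and 14604 genes reached 1 TPM in the siDUSP6 libraries, and between 14615 and 14680 in the siNC libraries, so the groups did not overlap in this count. TPM keep no sequencing depth, so the precision of the low genes could not be set from counts. The 3 siDUSP6 libraries held 227, 218 and 222 TPM of DUSP6 itself, against 359, 368 and 378 TPM in siNC (log2 fold change -0.73, SE 0.0267, limma adjusted p = 8.67e-05), so transcript remained. For siDUSP6 replicates 2 and 3 the treatment label gives DUSP7 and DUSP8, while title and genotype give DUSP6, and DUSP6 was low in both of these libraries too. DUSP7, a related ERK phosphatase, also fell, with 39.6, 39.5 and 37.2 TPM in siDUSP6 replicates 1, 2 and 3, against 49.5, 50.1 and 47.1 TPM in siNC (limma adjusted p = 0.0111, between 0.00671 and 0.225 over the alternatives). Leaving out siNC replicate 1 (limma adjusted p = 0.0573) or 2 (0.055) ended this call. DUSP8 averaged 1.56 ± 0.0569 TPM in siDUSP6 and 1.78 ± 0.358 TPM in siNC (SD, n = 3 each) and did not pass (limma adjusted p = 0.719). Of 10 macrophage markers 9 averaged at least 1 TPM, among them CD68 at 233 to 243 TPM in siDUSP6 and 226 to 236 TPM in siNC. MRC1 stayed at or below 0.12 TPM in every library. The summed macrophage markers lay at 3872 to 3946 TPM in siDUSP6 and at 3944 to 4041 TPM in siNC. Of the 9 tested markers only CD14 was called, and it rose, with 39.6 to 42.0 TPM in siDUSP6 and 26.2 to 32.4 TPM in siNC (limma adjusted p = 0.0333). The alternatives are not given for CD14. TYROBP, LYZ, CSF1R and ITGAM were lower in siDUSP6 without overlap but were not called. TYROBP, for example, lay at 760 to 763 TPM in siDUSP6 and 782 to 800 TPM in siNC (limma adjusted p = 0.097). MRC1, at its low level, was higher without overlap, and the other markers overlapped. Over all tested genes 3.86% were called, and the groups did not overlap for 25.1%. The 4 hepatocyte markers summed to 19.9 to 21.4 TPM in siDUSP6 and 19.2 to 21.1 TPM in siNC. Most of that was SERPINA1, which macrophages also express, at 13.4 to 15.1 TPM in siDUSP6 and 13.8 to 14.6 TPM in siNC. APOA1 measured 3.19 to 6.76 TPM in siDUSP6 and 4.65 to 5.12 TPM in siNC, and albumin 0.79 to 1.62 TPM in siDUSP6 and 0.56 to 1.43 TPM in siNC. The fibroblast gene DCN, the endothelial gene CDH5 and the T cell gene CD3E were at or below 0.41 TPM in every library, and EPCAM was listed at 0 throughout.

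None of the complement members passed the test of siDUSP6 against siNC. Of the 10 members 9 averaged 1 TPM or more across all 6 libraries and were tested, and 0 were called higher and 0 lower at a limma adjusted p under 0.05, against 3.86% of the 14602 genes tested. At an unadjusted p under 0.05 the count was 1 of 9, for CD59, against 19.2% of all tested genes. Log2 fold changes were positive for 3 of the 9 and negative for 6, with a median of -0.075, beside a median of -0.025 over all tested genes. The groups did not overlap in TPM for 1 of the 9, again CD59, and for 25.1% of all tested genes. C1R, which was too low to be tested, was the other member whose groups were apart. The count of called members was 0 in the fits that each left out 1 library, and 0 with siDUSP6 replicate 1 alone against the siNC libraries. Over all genes 346 were higher and 218 lower in siDUSP6, so that 61.3% of the calls were higher, and after median-of-ratios rescaling 72% were. Without any 1 library that total of 564 was 209 to 258. In bulk RNA, fewer cells making a transcript and less of it per cell cannot be told apart.

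**Figure D1:**
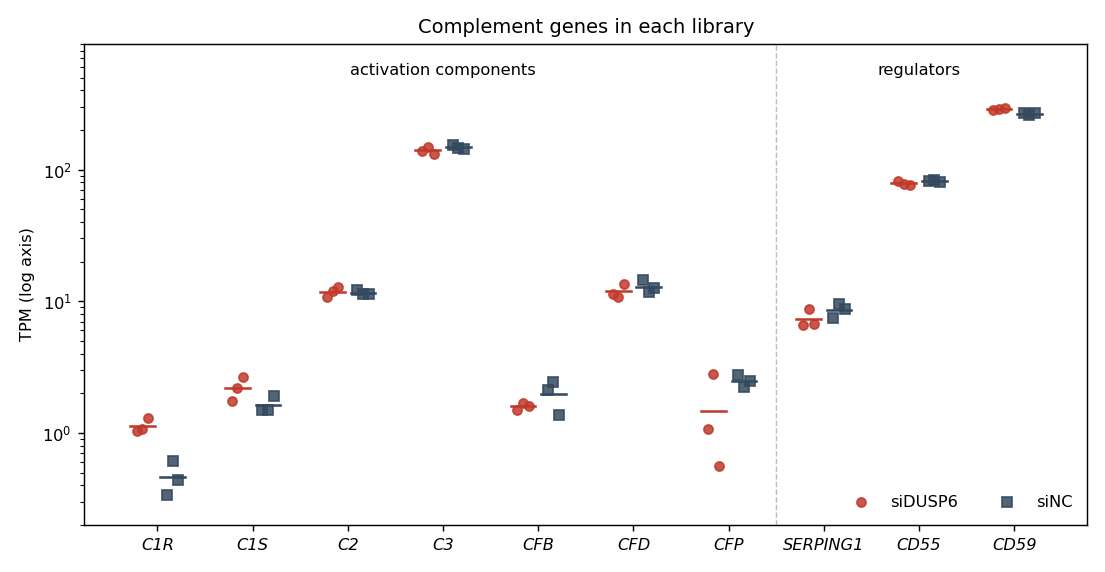
TPM of the 10 complement genes in each library, on a log axis, with siDUSP6 as red circles left of siNC as dark squares and a line at each group mean (3 libraries a group). CD59, C3 and CD55 lie well above the other 7 genes in both groups, and the symbols of the groups are apart for C1R and CD59.

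The levels of the members spanned a wide range, and the order was the same in both groups for the upper 6. TPM are per transcript length, so they can be set side by side between genes. CD59 was highest, at a mean of 288 TPM in siDUSP6 and 266 TPM in siNC, followed by C3, CD55, CFD, C2 and SERPING1. In both groups the libraries of CD59, C3 and CD55 were apart from those of the next gene down. CFD and C2 overlapped in both groups, and both lay above SERPING1. C1S, CFB and CFP shared the range below 3 TPM, where CFB and CFP overlapped in both groups, and C1R had the lowest mean. In siDUSP6 the CFP libraries also reached below C1R. The 7 activation components summed to 167, 179 and 165 TPM in siDUSP6 and to 186, 176 and 173 TPM in siNC, of which C3 alone made up 80.3% to 83.6%. The 3 regulators summed to 371, 374 and 377 TPM in siDUSP6 and to 360, 351 and 358 TPM in siNC, with CD59 at 73.7% to 78.0% of the sum.

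C1R and C1S encode the paired serine proteases of the C1 complex, in which C1r activates C1s and C1s cleaves C4 and C2. C1R stood at 1.04, 1.07 and 1.29 TPM in siDUSP6, against 0.34, 0.61 and 0.44 TPM in siNC. All 3 siDUSP6 libraries were above all 3 siNC libraries, with means of 1.13 ± 0.137 and 0.463 ± 0.137 TPM (SD, n = 3 each). The mean of 0.798 TPM over the 6 libraries put it below the filter, and its difference of 0.55 on the log2(TPM + 1) scale depends on the pseudocount, being 1.15 with 0.1 and 0.17 with 5. The exact two-sided permutation test gave p = 0.1, the smallest that 3 against 3 libraries allow. With no filter on low values, limma gave C1R a 95% interval of 0.24 to 0.85 for that difference and an adjusted p of 0.152, so it was not called.

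C1S stood at 1.75, 2.20 and 2.66 TPM in siDUSP6, against 1.49, 1.49 and 1.91 TPM in siNC. The groups overlapped, since siDUSP6 replicate 1 lay below siNC replicate 3. The log2 fold change was 0.28 (95% interval -0.082 to 0.64, limma adjusted p = 0.378). C1S and C1R lie next to each other on chromosome 12, 9166 bases apart on opposite strands (GRCh38, GENCODE release 29), C1S at chr12:6988259-7071032 and C1R at chr12:7080199-7092607. Within a library C1S exceeded C1R 1.68, 2.06 and 2.06 times in siDUSP6, against 4.38, 2.44 and 4.34 times in siNC, with no overlap (exact permutation p = 0.1, adjusted p = 0.167 over 5 ratios, chosen after the values were seen). The groups of C1R were already apart by themselves. Both genes overlap others in the annotation. C1RL, a C1r-like gene on the same strand as C1R, measured 4.10 to 4.88 TPM in siDUSP6 and 3.23 to 4.30 TPM in siNC, so how reads were divided between it and the much lower C1R is uncertain. EMG1, on the same strand as C1S, measured 5.02 to 7.10 TPM in siDUSP6 and 5.55 to 7.84 TPM in siNC. LPCAT3, which overlaps C1S on the opposite strand, measured 14.2 to 18.33 TPM in siDUSP6 and 15.65 to 18.65 TPM in siNC, and the strand setting of the processing is not given. The same uncertainty therefore holds for C1S and for the ratio.

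C2 and factor B are related proteases that play the same part in the classical and the alternative C3 convertase. C2 stood at 10.7, 12 and 12.9 TPM in siDUSP6, against 12.1, 11.3 and 11.4 TPM in siNC, and the siNC values fell within the siDUSP6 range. Its log2 fold change was 0.025 (95% interval -0.16 to 0.21, limma adjusted p = 0.899), and its sign turned without siDUSP6 replicate 3 (-0.031). CFB stood at 1.5, 1.7 and 1.6 TPM in siDUSP6, against 2.13, 2.45 and 1.36 TPM in siNC. A single siNC library, replicate 3, lay below all siDUSP6 libraries and the other siNC libraries above them. The log2 fold change was -0.18 (95% interval -0.58 to 0.22, limma adjusted p = 0.623). The genes lie head to tail in the class III region of the major histocompatibility complex, C2 at chr6:31897785-31945672 and CFB at chr6:31945650-31952084, and overlap by a few bases on the same strand. A read-through gene that spans parts of both, AL645922.1, was at or below 0.32 TPM in every library.

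C3, the component on which all routes converge, was the most abundant activation component. It stood at 139, 148 and 133 TPM in siDUSP6, against 153, 146 and 143 TPM in siNC. The groups overlapped, with siDUSP6 replicate 2 above 2 of the siNC libraries. GPR108, which overlaps C3 on the same strand, measured 43.5 to 43.7 TPM in siDUSP6 and 39.8 to 41.8 TPM in siNC. The log2 fold change of C3 was -0.075 (SE 0.0459, limma adjusted p = 0.441), and its 95% interval ran from -0.18 to 0.035, so the data bound a fall of C3 at 0.88 of the siNC level and a rise at 1.02 times it. Set against CD59 in the same library, C3 came to 0.492, 0.515 and 0.451 in siDUSP6 and to 0.563, 0.566 and 0.531 in siNC. These ratios did not overlap (exact permutation p = 0.1, adjusted p = 0.167 over the 5 ratios), but the groups of CD59 were apart by themselves.

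The remaining genes of the alternative route are CFD, the protease that cleaves factor B, and CFP, which encodes properdin, the stabilizer of the convertase. CFD stood at 11.3, 10.85 and 13.5 TPM in siDUSP6, against 14.6, 11.7 and 12.5 TPM in siNC, with overlapping groups and a log2 fold change of -0.11 (95% interval -0.37 to 0.15, limma adjusted p = 0.633). CFP stood at 1.07, 2.80 and 0.56 TPM in siDUSP6, against 2.75, 2.22 and 2.50 TPM in siNC. Replicate 2 of siDUSP6 was the highest of the 6 libraries, whereas the other siDUSP6 libraries were the lowest. The coefficient of variation of CFP was 79.5% within siDUSP6 and 10.6% within siNC. Its log2 fold change of -0.59 was the largest in size among the tested members, with a 95% interval from -1.35 to 0.16 (limma adjusted p = 0.366). Without siDUSP6 replicate 2 it was -0.95 (limma adjusted p = 0.0779), and over all alternatives that keep CFP the adjusted p lay between 0.0779 and 0.623.

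SERPING1 encodes C1 inhibitor, a serpin that shuts off C1r and C1s. It stood at 6.60, 8.71 and 6.75 TPM in siDUSP6, against 7.43, 9.53 and 8.69 TPM in siNC. The groups overlapped, and the log2 fold change was -0.20 (95% interval -0.50 to 0.11, limma adjusted p = 0.464). CD55, or decay-accelerating factor, speeds the breakdown of C3 convertases on the cell's own surface. It stood at 81.8, 78.1 and 76.3 TPM in siDUSP6, against 81.9, 82.7 and 80.8 TPM in siNC. Only siDUSP6 replicate 1 lay within the siNC range, and the log2 fold change was -0.055 (SE 0.0338, limma adjusted p = 0.442). The 95% interval for CD55 ran from -0.14 to 0.026, or 0.91 to 1.02 times the siNC level.

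CD59, the membrane-anchored protein that blocks assembly of the lytic pore, came closest to the threshold. It stood at 283, 287 and 294 TPM in siDUSP6, against 271, 259 and 269 TPM in siNC. All 3 siDUSP6 libraries were above all 3 siNC libraries, with means of 288 ± 5.69 and 266 ± 6.51 TPM (SD, n = 3 each), a difference of 8.22%. The log2 fold change was 0.11 (SE 0.0262, 95% interval 0.051 to 0.18), with a limma adjusted p of 0.0711 and an unadjusted limma p of 0.00375. The adjusted p stayed above 0.05 under every alternative, from 0.0518 with a filter at a mean of 5 TPM to 0.423 with siDUSP6 replicate 1 alone against siNC. The ratio of CD59 to CD55 was 3.46, 3.68 and 3.85 in siDUSP6, against 3.31, 3.13 and 3.32 in siNC, again without overlap (exact permutation p = 0.1, adjusted p = 0.167 over the 5 ratios). This ratio and that of C3 to CD59 both hold CD59, whose own groups were apart, so they add no separate result. With 3 against 3 libraries an exact p cannot fall below 0.1, so no ratio could pass. CD59 lies at chr11:33703010-33736491 on the minus strand and shares that strand with an overlapping protein-coding gene, AL049629.2, whose level varied between 2.99 and 10.9 TPM in siDUSP6 and between 1.05 and 14.6 TPM in siNC. With both summed, in case reads were divided between them, the values were 294, 293 and 297 TPM in siDUSP6 and 278, 260 and 283 TPM in siNC, still without overlap (exact permutation p = 0.1).

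**Figure D2:**
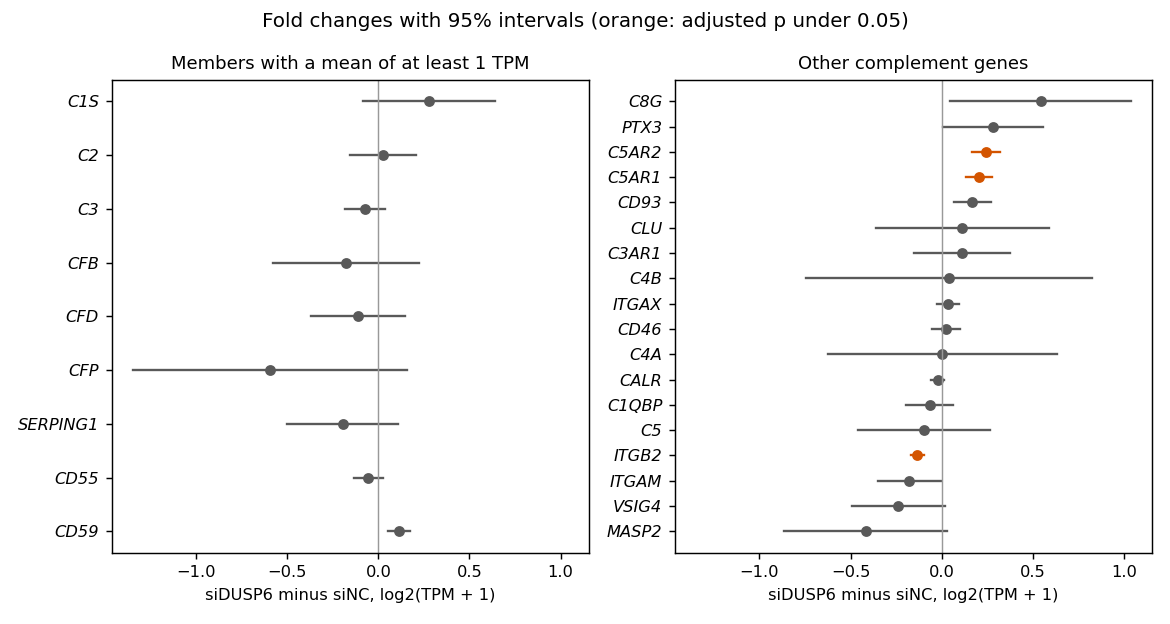
Log2 fold changes, siDUSP6 minus siNC on the log2(TPM + 1) scale, as points with 95% limma intervals, for the 9 tested members on the left and the 18 other tested complement genes on the right. All members are grey, meaning not called, and of the others C5AR1 and C5AR2 lie to the right and ITGB2 to the left in orange, with an adjusted p under 0.05.

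The promoters of CD59, the tested member whose groups did not overlap, and of CFB, a well-known interferon-responsive complement gene whose groups overlapped, are printed here with motif matches in capitals. Promoter windows of 300 bases, with 250 before and 50 from the start onward, were taken from RefSeq (GRCh38.p14), which held 13 windows for 7 of the 10 members. CD59 has several annotated starts, and the data do not say which were used. The CD59 window shown is the one that held a match, at a start inside the gene.
CD59, chr11:33722678-33722977, minus strand: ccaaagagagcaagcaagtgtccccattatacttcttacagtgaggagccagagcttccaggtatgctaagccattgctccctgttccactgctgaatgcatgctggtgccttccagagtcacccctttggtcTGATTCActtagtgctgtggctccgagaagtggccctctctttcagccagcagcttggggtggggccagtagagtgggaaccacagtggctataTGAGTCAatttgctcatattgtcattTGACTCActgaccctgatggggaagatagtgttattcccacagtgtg
CFB, chr6:31945845-31946144, plus strand: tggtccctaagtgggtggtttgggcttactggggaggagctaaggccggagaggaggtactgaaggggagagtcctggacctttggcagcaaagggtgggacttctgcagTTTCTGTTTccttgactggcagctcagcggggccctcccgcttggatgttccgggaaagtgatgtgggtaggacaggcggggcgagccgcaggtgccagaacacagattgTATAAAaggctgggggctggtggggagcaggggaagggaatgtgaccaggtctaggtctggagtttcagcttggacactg

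The motifs were searched on both strands. They were the AP-1 site (TGANTCA), the interferon-stimulated response element (ISRE, AAANNGAAA), an NF-kB site (GGGNTTTCC), an ETS site (CCGGAAGT) and a TATA box (TATAAA). The AP-1 letters were found in 1 of the 13 windows, the printed one of CD59, against 7.71% of all 35116 windows in the RefSeq table. There they occur at 3 places, from bases -117 and -23 before the start and from base 3 after it. The ISRE letters were found in 1 window, that of CFB, on the minus strand from base -140, against 10.5% of all windows. A TATA box was found only in CFB among the 13 windows, from base -30, against 11.5% of all windows. The NF-kB and ETS letters were found in 0 of 13, against 1.86% and 4.14% of all windows. The C1R windows held none of these letters. A match describes the letters only.

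Outside the 10 members, the receptors for the fragment C5a rose and a subunit of the C3 fragment receptors fell. A list of 45 further complement genes, from C1q to the receptors, held 18 that averaged 1 TPM or more. Of these 2 rose, 1 fell and 15 did not pass the test, beside 2.37% higher and 1.49% lower among all tested genes, and their median log2 fold change was 0.029. The C1q chains C1QB and C1QC, the terminal components C6, C7, C8A, C8B and C9, the lectin-route proteins MBL2 and MASP1 and the receptor CR1 were among 25 genes under 1 TPM in every library, of which 9 were listed at 0 throughout. Other genes of these routes were higher and not called. The terminal genes C5 and C8G averaged 3.08 and 4.07 TPM in siDUSP6 and 3.33 and 2.44 TPM in siNC (limma adjusted p = 0.780 and 0.223). The lectin-route protease gene MASP2 averaged 1.65 TPM in siDUSP6 and 2.59 TPM in siNC (limma adjusted p = 0.292). C4A and C4B, near-identical copies whose reads cannot be told apart reliably, averaged 1.74 and 2.08 TPM in siDUSP6 and 1.76 and 2.18 TPM in siNC.

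C5AR1, the main receptor of the inflammatory fragment C5a, stood at 187, 190 and 183 TPM in siDUSP6, against 167, 162 and 157 TPM in siNC (log2 fold change 0.20, SE 0.0292, limma adjusted p = 0.0156). C5AR2, a second C5a receptor that does not couple to G proteins, stood at 49.5, 49.5 and 48.9 TPM in siDUSP6, against 42.5, 40.6 and 41.4 TPM in siNC (log2 fold change 0.24, SE 0.0329, limma adjusted p = 0.0133). All siDUSP6 libraries were above all siNC libraries for both genes, which are neighbours on chromosome 19. The ratio of C5AR1 to C5AR2 overlapped between the groups, at 3.79 ± 0.0445 in siDUSP6 and 3.90 ± 0.0974 in siNC (SD, n = 3 each, exact permutation p = 0.2, adjusted p = 0.25 over the 5 ratios). The C5AR1 call was lost without siDUSP6 replicate 1 (limma adjusted p = 0.0726) or 2 (0.0677), siNC replicate 2 (0.0679) or 3 (0.05001). The C5AR2 call was lost without siDUSP6 replicate 1 (limma adjusted p = 0.0588), 2 (0.0586) or 3 (0.0501), siNC replicate 2 (0.0554) or 3 (0.0541). Over all alternatives their adjusted p lay between 0.00743 and 0.247 and between 0.0086 and 0.236.

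ITGB2, the beta chain shared by complement receptors 3 and 4, fell to 1431, 1416 and 1434 TPM in siDUSP6, against 1584, 1576 and 1539 TPM in siNC (log2 fold change -0.13, SE 0.0152, limma adjusted p = 0.00648). The call held in each of the 6 fits that left out 1 library, but among the other settings it was lost, for example, without the variance trend (limma adjusted p = 0.147) and with siDUSP6 replicate 1 alone against siNC (0.225), with adjusted p over all alternatives between 0.00413 and 0.225. The alpha chains of receptors 3 and 4, ITGAM and ITGAX, did not pass. ITGAM averaged 26.9 ± 0.286 TPM in siDUSP6 and 30.6 ± 3.23 TPM in siNC (SD, n = 3 each, limma adjusted p = 0.252). It was lower in siDUSP6 without overlap, and 25.1% of all tested genes did not overlap. ITGAX averaged 115 ± 1.62 TPM in siDUSP6 and 112 ± 1.05 TPM in siNC (SD, n = 3 each, limma adjusted p = 0.499). ITGB2-AS1, an antisense gene that overlaps ITGB2, measured 24.6 to 31.4 TPM in siDUSP6 and 24.8 to 32.3 TPM in siNC. CD46, a membrane cofactor for cleavage of C3b that shields cells as CD55 does, averaged 92.4 ± 2.11 TPM in siDUSP6 and 90.9 ± 2.17 TPM in siNC (SD, n = 3 each, limma adjusted p = 0.734). CALR and C1QBP, a pair of proteins that bind C1q, averaged 1318 ± 6.12 and 66.3 ± 4.81 TPM in siDUSP6, against 1338 ± 22.4 and 69.4 ± 0.479 TPM in siNC (SD, n = 3 each), and did not pass (limma adjusted p = 0.5 and 0.559).

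**Figure D3:**
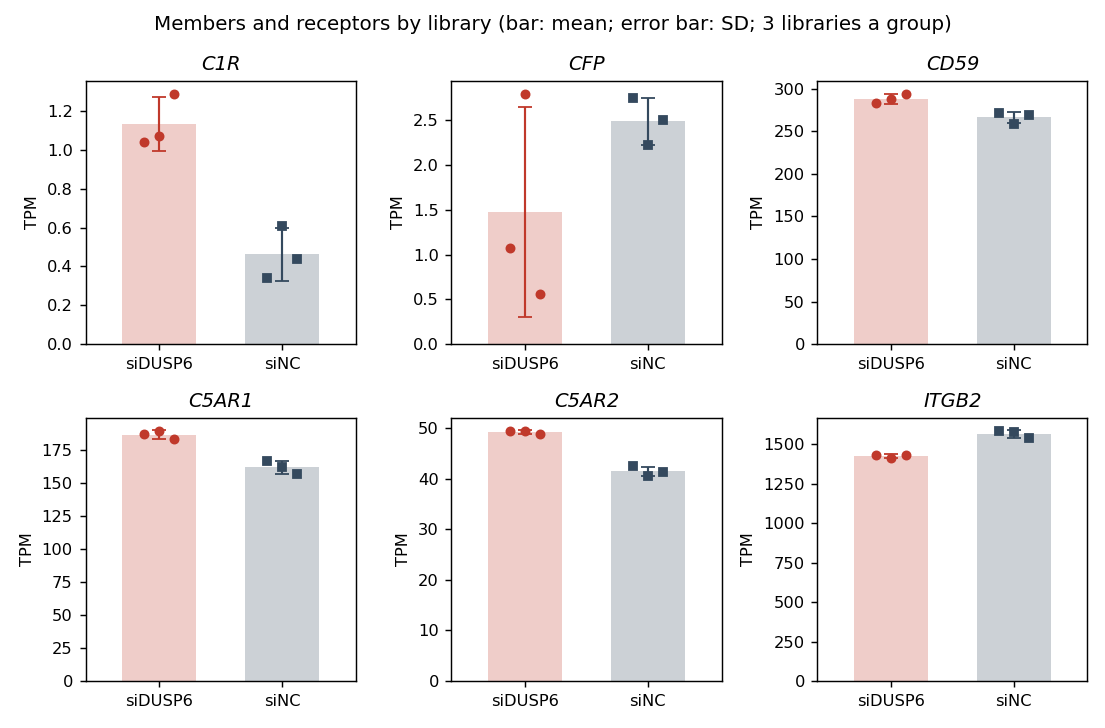
TPM of 3 members and 3 complement receptor genes by library, with siDUSP6 left of siNC, bars for means, error bars for the SD and a symbol for each of 3 libraries. The siDUSP6 symbols lie apart from the siNC symbols for C1R, CD59, C5AR1 and C5AR2, where they are higher, and for ITGB2, where they are lower, while those of CFP span the siNC range.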

How the data were processed

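Stranded poly(A) libraries were made from total RNA, per the labels' protocols. Values are TPM for each gene and library, in 1 table as the authors deposited it. HISAT2, StringTie, fastp and GRCh38 are named in the submitters' processing notes. Any version, annotation release or strand setting is not given in the sources used here. TPM are shares of the transcript pool, so abundant transcripts can shift the others, and no depth or counting interval can be had.

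After 21 rows with no gene ID were left out, log2(TPM + 1) was fitted with limma 3.58.1 (R 4.3.3), group as the only term, a variance trend and Benjamini-Hochberg adjustment over the 14602 genes that averaged 1 TPM or more, calling an adjusted p under 0.05. Such fold changes understate the change of low genes. Tests were two-sided, and the fit was tested on simulated data with 50 genes changed at each fold. It called 4% of the 1.1-fold, 28% of the 1.25-fold, 62% of the 1.5-fold and 78% of the 2-fold changes. The simulated data gave 89 calls, against 564 in the real data, so the cutoff on p was stricter there and these rates may not carry over. They also mix genes of all levels. Small changes can be missed, mostly so in the simulation, and a gene that did not pass is not shown to be unchanged. Coordinates came from GENCODE release 29, which held 58228 of the 63241 IDs. Tables used Python 3.11.15 and scipy 1.17.1.

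The members and lists were chosen with earlier results of these data known. Named were all members, called genes of the further list and any there averaging 50 TPM or more, and DUSP6. Genes most like a called member were to be named, and no member was called. ITGAM, C4A, C4B, C5, C8G, MASP2 and the genes listed at low levels were named after their values were seen. Alternatives were other pseudocounts, filters, scalings and variance models, a replicate block, each library left out and, chosen after seeing the data, siDUSP6 replicate 1 alone.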

Additional observations from a re-analysis of the deposited data

How the results depend on the processing

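The count of called complement members was 0 under every alternative run. The count over all genes, 564, was 360 with no filter on low values, 124 without the variance trend, 51 with siDUSP6 replicate 1 alone against siNC (an alternative chosen after seeing the data, with the lone library assumed to vary like the others), and 209 to 258 with 1 library left out. The 3 calls among the further complement genes became 0 without the variance trend and 0 with siDUSP6 replicate 1 alone, and were 1 to 3 with 1 library left out. The cause of these differences was not tested. The fits that leave libraries out also hold fewer samples, while the fit without the variance trend holds all 6 libraries. C2 lay between -0.031 and 0.092 with 1 library left out, below 0 only without siDUSP6 replicate 3, and at -0.11 with siDUSP6 replicate 1 alone, where CD55 stood at 3.25e-06 on the log2 scale. Among the other members, DUSP6, DUSP7, C5AR1, C5AR2, ITGB2, ITGAX, CD46, CALR and C1QBP, no alternative turned the direction. C4A and C4B, with fold changes near 0, took either sign over the alternatives, as did C5, while C8G and MASP2 kept theirs.

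Same-numbered libraries of the groups did not deviate together (correlations of 0.0252, -0.0365 and 0.048 across genes), so the numbers are not taken as pairs. With the replicate block 121 genes, 0 members and 0 further complement genes were called, with adjusted p of 0.0663 for ITGB2, 0.0663 for C5AR1 and 0.0851 for C5AR2. Depth is unknown, which limits C1R, C1S, CFB and CFP most.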
